A study of Mus musculus with 12 samples.

Results

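The genes described are the mouse Fc gamma receptors and the chain through which most of them signal: Fcgr1, Fcgr3 and Fcgr4, which activate the cell, Fcgr2b, which inhibits it, and Fcer1g, the signalling chain. They were chosen by symbol in the deposited gene table and make up 5 of its 52636 genes. All 5 passed the filter on low counts, which kept 16679 genes. RNA was sequenced from Cx3cr1+ macrophages of mouse lung in 3 groups of 4 libraries. The groups are bleomycin-treated and labelled IL4Ra KO (bleomycin KO), bleomycin-treated and labelled IL4Ra WT (bleomycin WT), and saline-treated and labelled IL4Ra WT (saline WT). Bleomycin is a drug that damages lung tissue and leads to fibrosis, and IL4Ra is the receptor chain through which IL-4 and IL-13 act. Strain, age, sex, dose, days after bleomycin, the cells in which Il4ra was deleted and the way Cx3cr1+ cells were isolated are given in none of the sources used here. No saline-treated KO group was analysed here, so bleomycin KO and saline WT differ in both treatment and genotype label. Whether the libraries are of separate mice is not stated in the labels, and a p-value here therefore measures the spread between libraries, which may be technical.

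Fc gamma receptors bind the constant part of IgG. The activating receptors Fcgr1, Fcgr3 and Fcgr4 need the Fcer1g chain both to reach the cell surface and to signal: its activating motif (ITAM) is phosphorylated by Src family kinases and recruits Syk, which leads to phagocytosis of antibody-coated particles and an oxidative burst. Fcgr2b carries its own inhibitory motif (ITIM), which recruits the phosphatase SHIP, encoded by Inpp5d, and sets a threshold for activation. Fcgr1 has the highest affinity for monomeric IgG, Fcgr3 and Fcgr2b bind mainly immune complexes, and Fcgr4 is the mouse counterpart of human FCGR3A and is typical of neutrophils and patrolling monocytes as well as macrophages. In human monocytes, IL-4 is known to lower activating receptors and raise the inhibitory one.

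The positions and sequences of the genes bear on how well their reads can be told apart. On GRCm38 the annotation (GENCODE vM21) places 4 of the genes close together on chromosome 1: Fcgr2b at chr1:170958617-170976547 on the minus strand, Fcgr4 at chr1:171018920-171029761 on the plus strand, Fcgr3 at chr1:171051174-171064935 on the minus strand and Fcer1g at chr1:171229572-171234365 on the minus strand. Fcgr1 lies apart at chr3:96282909-96293969 on the minus strand. Transcripts of Fcgr2b and Fcgr3 are identical over a run of 129 coding bases that spans exons 3 and 4 of both genes. In Fcgr2b (transcript ENSMUST00000027966) it covers chr1:170967980-170968081 and chr1:170966674-170966700, and in Fcgr3 (transcript ENSMUST00000164044) it covers chr1:171057691-171057792 and chr1:171054167-171054193. The run is shown because no 50-base read inside it can be given to either gene from its sequence alone.

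Fcgr2b and Fcgr3 shared run: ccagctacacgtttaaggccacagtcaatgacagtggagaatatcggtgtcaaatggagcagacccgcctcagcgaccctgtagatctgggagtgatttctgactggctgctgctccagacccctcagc

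In all, 9.58% of the 50-base stretches of Fcgr3 transcripts also occur in Fcgr2b, as 166 distinct stretches. The same 166 stretches make up 2.92% of those of Fcgr2b. No stretch of Fcgr1, Fcgr4 or Fcer1g occurs in another gene. No source used here says how reads with several matches were counted, so the division of reads between Fcgr2b and Fcgr3 is uncertain. As Fcgr3 is the more abundant gene, the uncertainty is larger for Fcgr2b: reads at 9.58% of the Fcgr3 count would equal 12.3% to 19.8% of the Fcgr2b count in bleomycin KO, 11.8% to 21.2% in bleomycin WT and 15.8% to 112% in saline WT, where the 112% is saline WT 2 with its 3 counts. Less such reads, Fcgr2b would stand at 552 to 702 CPM (counts after scaling of library totals with TMM factors) in bleomycin KO and 488 to 718 CPM in bleomycin WT, against at most 363 CPM in saline WT. Fcgr2b also shares 155 exonic bases with Gm38204 on the opposite strand, and the library kit does not mark strand, so reads of the 2 genes there cannot be told apart.

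The 120 bases before each start site (RefSeq, GRCm38.p6) are shown because Fcgr1 and Fcgr2b, which lie on different chromosomes, had the larger differences between bleomycin and saline libraries. Capitals mark a motif searched on both strands over 300 bases (250 before to 50 after the start site): GAGGAA, the core recognised by PU.1, the factor that drives myeloid genes (it reads TTCCTC on the other strand). Fcgr1 is shown at chr3:96293970-96294089, Fcgr2b at chr1:170976072-170976191, Fcgr3 at chr1:171059404-171059523, Fcer1g at chr1:171234350-171234469 (all minus strand), and Fcgr4 at chr1:171018806-171018925 (plus strand), each in its own 5′ to 3′ direction.

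Fcgr1: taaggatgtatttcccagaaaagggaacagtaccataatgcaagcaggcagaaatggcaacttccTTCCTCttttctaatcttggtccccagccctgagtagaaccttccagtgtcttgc
Fcgr3: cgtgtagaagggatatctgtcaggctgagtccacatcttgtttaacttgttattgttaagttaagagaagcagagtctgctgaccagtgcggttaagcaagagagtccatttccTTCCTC
Fcgr4: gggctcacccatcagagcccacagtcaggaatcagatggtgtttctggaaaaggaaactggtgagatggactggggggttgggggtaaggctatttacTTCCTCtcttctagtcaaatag
Fcgr2b: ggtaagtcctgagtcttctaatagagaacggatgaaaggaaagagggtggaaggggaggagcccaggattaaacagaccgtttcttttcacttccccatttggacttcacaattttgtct
Fcer1g: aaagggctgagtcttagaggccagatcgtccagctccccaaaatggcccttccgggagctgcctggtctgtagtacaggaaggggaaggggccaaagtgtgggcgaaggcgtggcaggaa

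The PU.1 core stood within the last 55 bases before the start site in each of the 3 activating receptors: its first base was 55 bases before it in Fcgr1, 22 in Fcgr4 and 6 in Fcgr3 (15 for the other start site of Fcgr3 listed by RefSeq). The 300-base windows of Fcgr2b and Fcer1g did not hold these letters. Of 32851 promoter windows of that length, 28.3% hold the core. A second motif was searched in the same way: TTC and GAA separated by 4 bases of any kind, the spacing preferred by STAT6, the factor activated by IL4Ra, was in none of the 5 on either strand, against 6.95% of all windows. A match or its absence describes only these letters in this window.

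Several libraries stood apart from the rest. Total counts were 8514384 to 16842991 in bleomycin KO, 9600870 to 18051113 in bleomycin WT and 60598 to 10168525 in saline WT. Saline WT 2, with 60598 counts, held only 1 count of Fcgr1, 3 of Fcgr2b, 35 of Fcgr3, 13 of Fcgr4 and 120 of Fcer1g. The best Spearman correlation across genes with another library was 0.498 for saline WT 2, 0.658 for saline WT 1 and 0.730 for bleomycin WT 4, against 0.865 to 0.986 for the other 9. Results are also given from 10 libraries, without saline WT 2, the shallowest, and bleomycin WT 4, in which Cx3cr1 was lowest. This pair was chosen with earlier results of these data known, and saline WT 1, which stood further apart than bleomycin WT 4 by this correlation, was kept. Fits that leave out saline WT 1 as well, added after seeing the data, are given with the member counts. Macrophage markers were present in every group: 6 markers (Adgre1, Csf1r, Cd68, Lyz2, Mertk and Cx3cr1) summed to 38609 to 59514 CPM in bleomycin KO, 20213 to 42675 CPM in bleomycin WT and 11555 to 31557 CPM in saline WT. Most of this is Lyz2, which neutrophils and monocytes also make, and the other 5 markers summed to 3981 to 4370 CPM in bleomycin KO, 3517 to 5726 CPM in bleomycin WT and 2238 to 4035 CPM in saline WT, with Mertk at 0 counts in saline WT 2. Cx3cr1 itself was lowest in bleomycin WT 4, at 7.46 CPM. Il4ra, the gene the labels give as deleted, stood at 235 to 473 CPM in the libraries labelled KO, within the 138 to 626 CPM of bleomycin WT, so its level did not check the labels. No source used here says which part of the gene the deletion removes, and every statement below on bleomycin KO is on libraries so labelled. Neutrophil markers (8 genes) summed to 971 to 1490 CPM in bleomycin KO, 544 to 1300 CPM in bleomycin WT and 2351 to 26865 CPM in saline WT, with no overlap between the bleomycin and saline libraries. Only 2 of the 8, S100a8 and S100a9, were lower in every bleomycin library than in every saline library. In saline WT 1, Ly6g and Camp had 0 counts, Ltf 1 and Ngp 3. The log2 fold change over saline WT was above 0 for 0 of the 8 genes in either bleomycin group. Markers of patrolling (non-classical) monocytes (6 genes) summed to 983 to 1655 CPM in bleomycin KO, 169 to 1882 CPM in bleomycin WT and 584 to 3279 CPM in saline WT. Nr4a1, an immediate early gene, carried most of that sum in bleomycin KO, and the other 5 (Ace, Adgre4, Spn, Treml4 and Cd300e) summed to 93.5 to 159 CPM in bleomycin KO and 81.4 to 119 CPM in bleomycin WT, against 238 to 1645 CPM in saline WT, with no overlap between the bleomycin and saline libraries. Both cell types express Fc gamma receptors, and the part of these markers in the differences below was not tested. In RNA from whole cell fractions, fewer cells of a type and less RNA per cell cannot be told apart.

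The mean levels ordered the 5 genes in the same way at the top in every group. Per kilobase of exonic size, Fcer1g stood at 1757 TMM-scaled CPM per kb in bleomycin KO, 1521 in bleomycin WT and 2000 in saline WT, which placed it 29th, 37th and 21st from the top among 16679 genes in those groups. Fcgr3 followed at 921 CPM per kb in bleomycin KO, 772 in bleomycin WT and 580 in saline WT (52nd, 71st and 73rd from the top). Fcer1g and Fcgr3 were thus among the most abundant transcripts in bleomycin and saline libraries alike. Fcgr2b came next in the bleomycin groups, at 201 CPM per kb in bleomycin KO and 180 in bleomycin WT, but stood at 66.9 in saline WT, below the 114 CPM per kb of Fcgr4. Fcgr1 and Fcgr4 were the lowest: in bleomycin KO they stood at 74.0 and 53.6 CPM per kb, in bleomycin WT at 59.3 and 91.5, and in saline WT Fcgr1 stood at 21.2. In each group the libraries of Fcgr4 overlapped those of its neighbour in this order. Compared within each library, Fcgr1 stood above Fcgr4 in all bleomycin libraries except bleomycin KO 4 and bleomycin WT 4. In bleomycin WT 4 they stood at 16.1 and 217 CPM per kb, on which the higher mean of Fcgr4 in bleomycin WT rests. Fcgr4 stood above Fcgr2b in all saline libraries except saline WT 1. These orders were not tested. With the larger exonic sizes of GENCODE vM21 for Fcgr2b (5790 in place of 3810 bases), Fcgr3 and Fcer1g, the order was the same in all 3 groups.

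**Figure D1:**
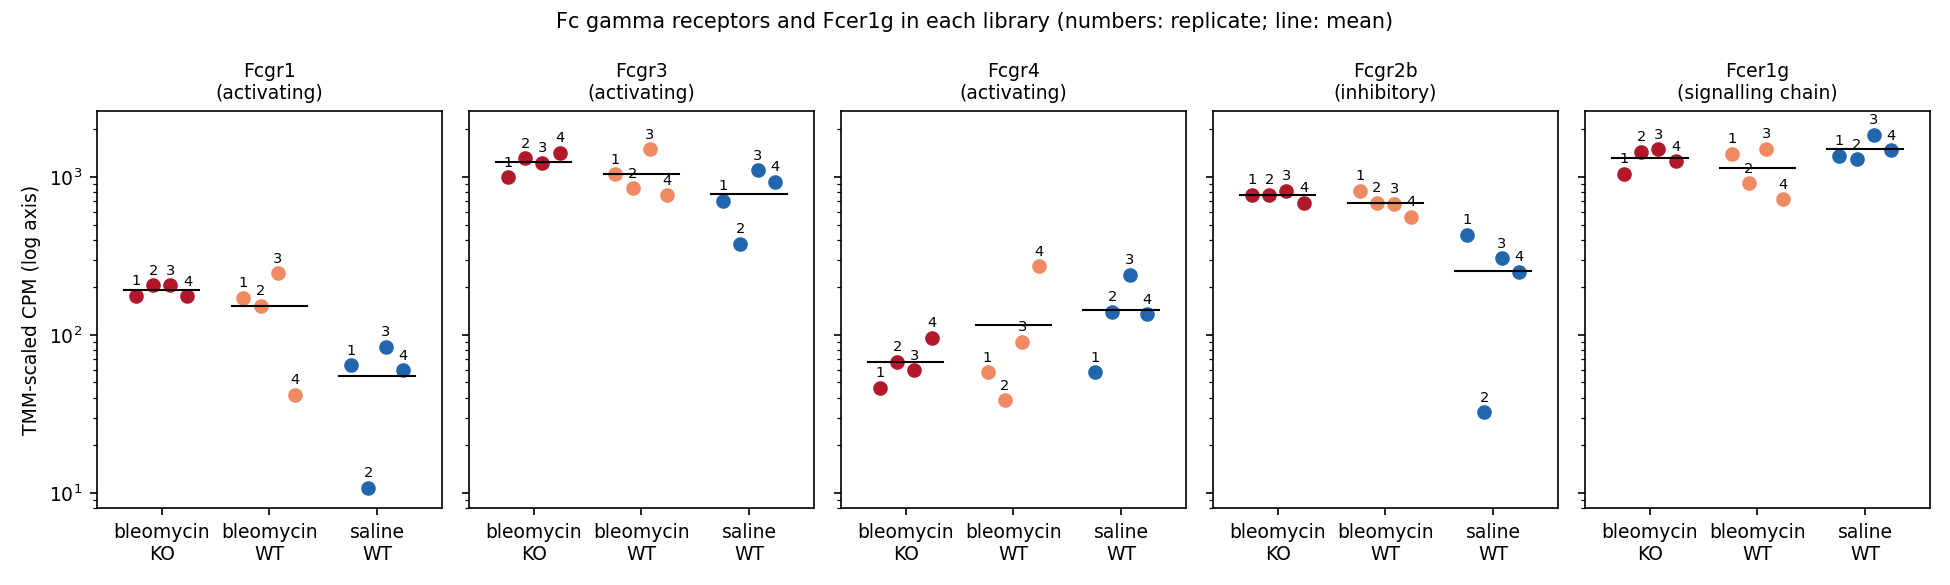
TMM-scaled CPM (log axis) of each gene in every library, with the replicate number beside each point and a line at the group mean. Fcgr2b is at 688 to 820 CPM in bleomycin KO and 562 to 818 CPM in bleomycin WT, above all 4 saline WT libraries (32.4 to 431 CPM), while Fcgr3 and Fcer1g overlap between bleomycin WT and saline WT.

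Fcgr1, the high-affinity receptor, was higher on average after bleomycin. It had 177, 207, 206 and 176 CPM in bleomycin KO replicates 1 to 4, against 172, 154, 246 and 41.8 CPM in bleomycin WT and 64.5, 10.8, 84.2 and 59.7 CPM in saline WT. All bleomycin KO libraries were above all saline WT libraries, and 3 of the 4 bleomycin WT libraries were, the exception being bleomycin WT 4. The log2 fold change of bleomycin WT over saline WT was 1.39 (SE 0.57, 95% interval 0.18 to 2.60), adjusted p = 0.289 by edgeR and p = 0.114 by the exact permutation test (two-sided). For bleomycin KO over saline WT it was 1.71 (SE 0.57, 95% interval 0.49 to 2.93), adjusted p = 0.370 by edgeR and p = 0.0286 by the exact permutation test (two-sided), and 0.0286 is the smallest p that 4 against 4 libraries can give. Neither comparison passed the edgeR threshold of 0.05 with 12 libraries. Without saline WT 2 and bleomycin WT 4, Fcgr1 rose in both: to 191 ± 49.5 CPM in bleomycin WT (SD, n = 3) against 70.6 ± 12.6 CPM in saline WT (SD, n = 3), a log2 fold change of 1.43 (SE 0.24, adjusted p = 0.0371 by edgeR), and to 193 ± 18.8 CPM in bleomycin KO (SD, n = 4), a log2 fold change over saline WT of 1.45 (SE 0.23, adjusted p = 0.0269 by edgeR). In that fit the median log2 fold change of all genes was -0.14 for bleomycin WT and -0.15 for bleomycin KO over saline WT, against 0.08 and 0.04 with 12 libraries. Leaving out either library alone did not bring Fcgr1 past the threshold.

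With TMM scaling, Fcgr2b, the inhibitory receptor, was higher in every library of both bleomycin groups than in every saline WT library. It had 775, 773, 820 and 688 CPM in bleomycin KO, against 818, 689, 680 and 562 CPM in bleomycin WT and 431, 32.4, 305 and 251 CPM in saline WT. The lowest bleomycin library, bleomycin WT 4, was still above the highest saline library, saline WT 1. The TMM factor of bleomycin WT 4 was 0.579, against 0.898 to 1.54 in the other libraries. For bleomycin WT over saline WT the log2 fold change was 1.40 (SE 0.52, 95% interval 0.30 to 2.49), adjusted p = 0.262 by edgeR and p = 0.0286 by the exact permutation test (two-sided). For bleomycin KO over saline WT it was 1.55 (SE 0.52, 95% interval 0.45 to 2.65), adjusted p = 0.366 by edgeR and p = 0.0286 by the exact permutation test (two-sided). With 10 libraries Fcgr2b rose in bleomycin KO, at 770 ± 54.6 CPM (SD, n = 4) against 337 ± 104 CPM in saline WT (SD, n = 3), a log2 fold change of 1.19 (SE 0.21, adjusted p = 0.0437 by edgeR). The same comparison for bleomycin WT, at 730 ± 85.0 CPM (SD, n = 3), gave 1.12 (SE 0.22) and an adjusted p of 0.0622 by edgeR. With library totals in place of TMM scaling, Fcgr2b overlapped between bleomycin WT (324 to 853 CPM by plain totals) and saline WT (49.5 to 501 CPM). Bleomycin KO (709 to 807 CPM) still lay above saline WT. The exact permutation p (two-sided) of Fcgr2b for bleomycin WT over saline WT was then 0.0571.

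Fcgr3, the most abundant of the receptors, overlapped between all groups. It had 997, 1311, 1230 and 1423 CPM in bleomycin KO, against 1041, 849, 1502 and 766 CPM in bleomycin WT and 709, 378, 1103 and 934 CPM in saline WT. The bleomycin KO libraries lay toward the top of the range and saline WT 2 at its bottom. The log2 fold change over saline WT was 0.66 for bleomycin KO (SE 0.39, adjusted p = 0.672 by edgeR; exact permutation p = 0.0571, two-sided) and 0.41 for bleomycin WT (SE 0.39, adjusted p = 0.662 by edgeR; exact permutation p = 0.343, two-sided).

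Fcgr4 pointed the other way on average, with the largest SE of the 5 in both comparisons with saline WT. It had 46.2, 67.6, 59.6 and 95.9 CPM in bleomycin KO, against 58.1, 38.7, 90.8 and 272 CPM in bleomycin WT and 57.9, 141, 241 and 135 CPM in saline WT. With TMM scaling, bleomycin WT 4 was the highest library of all and saline WT 1 lay among the bleomycin libraries, so the groups overlapped. By plain totals Fcgr4 reached 157 CPM in bleomycin WT, below the highest saline WT value of 231 CPM, and the groups overlapped as well. The log2 fold change over saline WT was -1.09 for bleomycin KO (SE 0.63, 95% interval -2.43 to 0.24, adjusted p = 0.655 by edgeR; exact permutation p = 0.114, two-sided) and -0.32 for bleomycin WT (SE 0.62, 95% interval -1.65 to 0.999, adjusted p = 0.854 by edgeR; exact permutation p = 0.486, two-sided). In bleomycin WT this value rests on replicate 4: with 10 libraries the log2 fold change over saline WT was -1.22 (SE 0.49, adjusted p = 0.314 by edgeR), close to the -1.10 (SE 0.45, adjusted p = 0.262 by edgeR) of bleomycin KO, and neither passed the threshold. Without saline WT 3 the value for bleomycin WT turned to 0.18. Treml4, a marker of patrolling monocytes, was at 9.43 to 28.2 CPM in bleomycin KO and 0.178 to 28.0 CPM in bleomycin WT, against 97.3 to 430 CPM in saline WT. With 10 libraries Treml4 fell in bleomycin KO (log2 fold change -3.74, adjusted p = 0.0114 by edgeR) and in bleomycin WT (-3.75, adjusted p = 0.0169 by edgeR). The neutrophil gene S100a9 also fell, in bleomycin KO (-3.63, adjusted p = 0.0325 by edgeR) and in bleomycin WT (-4.01, adjusted p = 0.0407 by edgeR). Bleomycin WT 4, with the highest Fcgr4 by TMM scaling, had the lowest Treml4 and 49.9 CPM of S100a9, the lowest of the 12 libraries. Other markers of the same lists did not follow. The neutrophil genes Retnlg (163 CPM) and Mmp8 (244 CPM) were higher there than in any other bleomycin library. Ace (54.0 CPM) and Adgre4 (44.8 CPM) of patrolling monocytes lay within the range of the other bleomycin libraries. The source of Fcgr4 in this library was not tested.

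Fcer1g, the signalling chain, was high in every library. It had 1051, 1450, 1501 and 1255 CPM in bleomycin KO, against 1405, 912, 1513 and 722 CPM in bleomycin WT and 1364, 1297, 1848 and 1476 CPM in saline WT. The groups overlapped, with bleomycin WT 4 the lowest library and saline WT 3 the highest. The log2 fold change over saline WT was -0.19 for bleomycin KO (SE 0.35, adjusted p = 0.916 by edgeR; exact permutation p = 0.343, two-sided) and -0.40 for bleomycin WT (SE 0.35, adjusted p = 0.628 by edgeR; exact permutation p = 0.257, two-sided). With library totals in place of TMM scaling, the groups did not overlap and Fcer1g was lower after bleomycin, at 994 to 1477 CPM by plain totals in bleomycin KO and 417 to 1476 CPM in bleomycin WT, against 1587 to 1980 CPM in saline WT. The exact permutation p (two-sided) was then 0.0286 in both comparisons, so whether Fcer1g separates the groups depends on the scaling. Fcer1a and Ms4a2, which form the IgE receptor with Fcer1g in mast cells and basophils, were at most 3.59 CPM in any library.

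Between the genotypes after bleomycin, all 5 genes overlapped. The log2 fold changes of bleomycin KO over bleomycin WT were 0.32 for Fcgr1 (95% interval -0.86 to 1.49), 0.15 for Fcgr2b (-0.92 to 1.23), 0.25 for Fcgr3 (-0.58 to 1.09), -0.77 for Fcgr4 (-2.09 to 0.55) and 0.21 for Fcer1g (-0.54 to 0.95). The adjusted p by edgeR was 0.9998 for each, and the exact permutation test (two-sided) gave p of 0.257 to 0.686. With 10 libraries the same values were 0.02, 0.08, 0.14, 0.12 and 0.05 (SE 0.21 to 0.46). The direction of Fcgr1 and Fcgr4 between the genotypes thus rested on bleomycin WT 4, without which the log2 fold changes were -0.0014 and 0.10. The intervals reach past a 2-fold difference (1 log2 unit) upward for Fcgr1, Fcgr2b and Fcgr3, and downward for Fcgr4.

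Counted over the 5 genes, edgeR called 0 in each of the 3 comparisons with 12 libraries, a fit that missed most simulated 4-fold changes. Over all 16679 genes it called 4 (0.024%) for bleomycin WT over saline WT, 0 (0%) for bleomycin KO over bleomycin WT and 3 (0.018%) for bleomycin KO over saline WT. At an unadjusted p under 0.05 the counts among the 5 genes were 2, 0 and 2, with Fcgr1 and Fcgr2b the genes in both comparisons with saline, and 2444, 647 and 1506 of all genes. DESeq2 called 0 of the 5 in each comparison, while over saline WT it called 499 (bleomycin WT) and 370 (bleomycin KO) of 16679 genes. With library quality weights, limma-voom called Fcgr1 and Fcgr2b for bleomycin WT over saline WT (log2 fold changes of 1.60 and 1.62, adjusted p = 0.0446 and 0.0277), among 295 genes in all. For bleomycin KO over saline WT limma-voom called Fcgr2b (1.66, adjusted p = 0.0280), among 226 genes in all. By lack of overlap with TMM scaling, 1 of the 5 was higher in every bleomycin WT library than in every saline WT library, against 4.93% of all genes. In the same way, 2 of 5 were higher in every bleomycin KO library, against 8.17%. With TMM scaling none of the 5 was lower in every library, against 0.929% and 1.04% of all genes. Between bleomycin KO and bleomycin WT no member separated, against 0.905% of genes higher and 0.594% lower throughout. With 10 libraries edgeR called 1 of 5 for bleomycin WT over saline WT (0.431% of 18812 genes), 0 of 5 for bleomycin KO over bleomycin WT (0% of genes) and 2 of 5 for bleomycin KO over saline WT (0.643%). Of the edgeR fits run, members were called only in those that left out saline WT 2 and bleomycin WT 4 together. Without saline WT 1 and 2, the pair with the lowest correlations, edgeR called 0 of 5 in each comparison, with adjusted p for bleomycin KO over saline WT of 0.568 for Fcgr1 and 0.0869 for Fcgr2b and for bleomycin WT over saline WT of 0.520 and 0.114. Without all 3 libraries it called Fcgr1 and Fcgr2b in both comparisons with saline WT, with adjusted p of 0.00397 to 0.0224 and only 2 saline libraries left. That fit called 522 genes in all for bleomycin WT and 465 for bleomycin KO over saline WT. The comparisons with saline WT share its libraries, and so do those with bleomycin WT, so their values are not independent of each other.

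**Figure D2:**
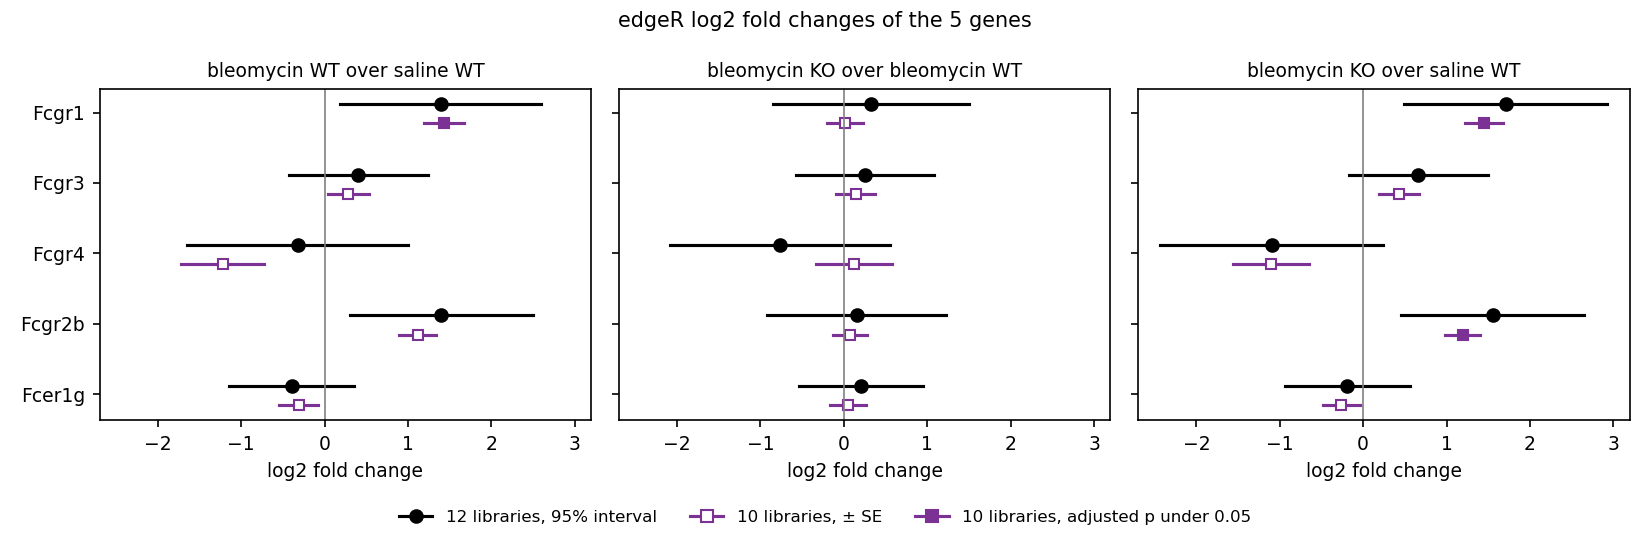
edgeR log2 fold changes of the 5 genes in the 3 comparisons, from 12 libraries (circles, 95% intervals) and from 10 libraries without saline WT 2 and bleomycin WT 4 (squares, ± SE, filled where the adjusted p is under 0.05). Fcgr1 is filled in both comparisons with saline WT and Fcgr2b in bleomycin KO over saline WT, while all 5 genes lie near 0 between the genotypes with 10 libraries.

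The make-up of the receptor pool was dominated by Fcgr3. Of the summed level of the 4 receptors in CPM per kb, Fcgr3 held 59.9% to 77.9% in each of the 12 libraries. Fcgr2b held 13.1% to 19.4% in bleomycin KO, 12.2% to 20.1% in bleomycin WT and 2.10% to 15.9% in saline WT. Fcgr4 held 3.51% to 5.53% in bleomycin KO, 3.42% to 22.8% in bleomycin WT and 6.48% to 27.6% in saline WT. Fcgr1 held 4.92% to 6.53% in bleomycin KO, 1.70% to 6.58% in bleomycin WT and 1.03% to 3.50% in saline WT. The high Fcgr4 and low Fcgr1 shares in bleomycin WT both come from replicate 4, whose make-up lay nearer to that of saline WT 2, 3 and 4 in these genes, although its Fcgr2b share of 15.5% did not.

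The activating receptors together exceeded the inhibitory one in every library. The log2 ratio of Fcgr1, Fcgr3 and Fcgr4 summed over Fcgr2b (per kb) was 2.06, 2.45, 2.27 and 2.73 in bleomycin KO, against 2.04, 1.99, 2.85 and 2.44 in bleomycin WT and 2.40, 5.54, 3.70 and 3.65 in saline WT. Saline WT 2 to 4 lay above all bleomycin libraries, while saline WT 1 lay among them. The mean was lower by 1.45 in bleomycin KO and by 1.49 in bleomycin WT than in saline WT (log2 units). Without saline WT 2 these differences were -0.87 for bleomycin KO and -0.92 for bleomycin WT. The ratio itself was 4.16 to 6.65 in bleomycin KO, 3.98 to 7.19 in bleomycin WT and 5.28 to 46.6 in saline WT. The 46.6 of saline WT 2 rests on 52 counts of the 4 receptors together. The mean differed by 0.05 between bleomycin KO and bleomycin WT. As a score over chosen genes, this ratio was given no p-value.

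**Figure D3:**
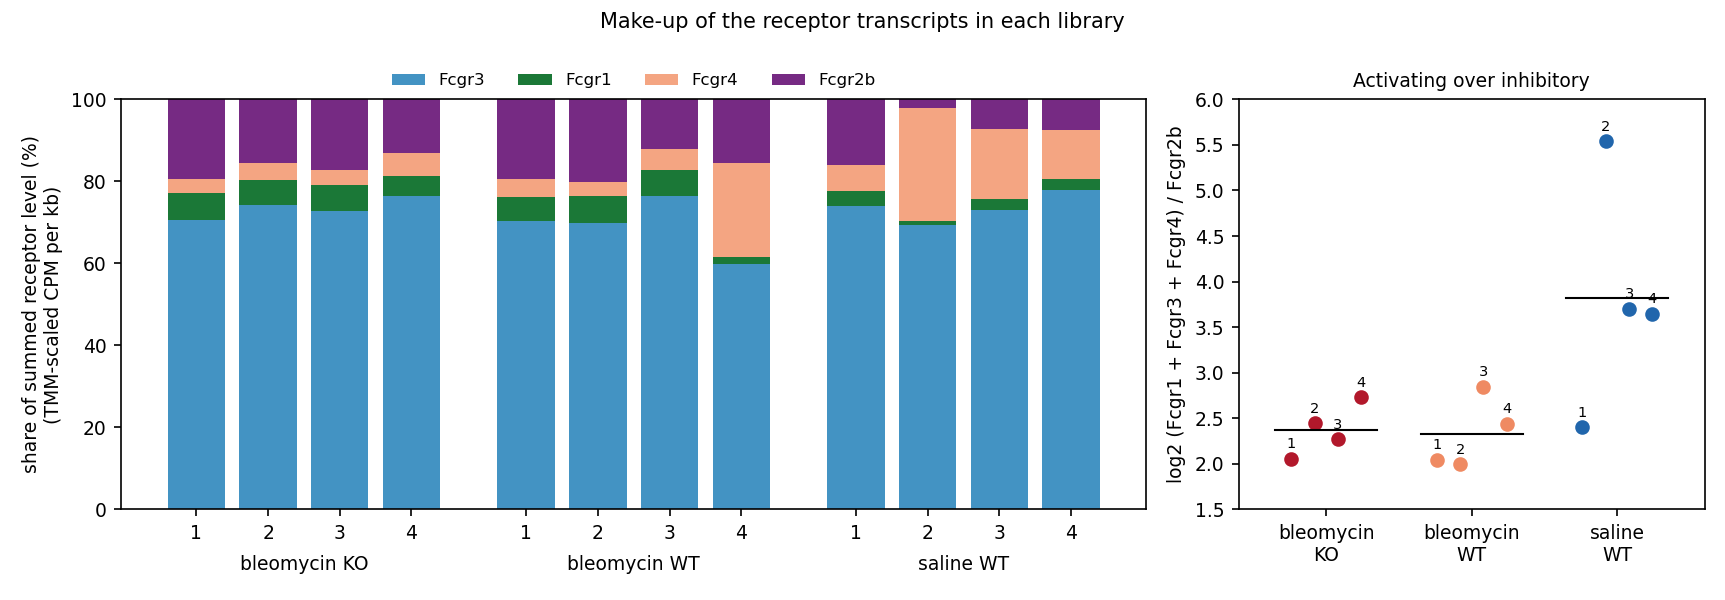
Left, the share of each receptor in the summed receptor level (TMM-scaled CPM per kb) of each library. Right, the log2 ratio of the activating receptors to Fcgr2b with a line at the group mean, where saline WT 1 (2.40) lies among the bleomycin libraries (1.99 to 2.85) and the other saline WT libraries are at 3.65 to 5.54.

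Set against their signalling chain, the receptors separated bleomycin from saline libraries. The summed level of the 4 receptors over that of Fcer1g (per kb), a ratio within each library that no scaling of libraries changes, was 0.626 to 0.823 in bleomycin KO and 0.586 to 0.982 in bleomycin WT, against 0.234 to 0.455 in saline WT. Of the single receptors, 3 of 4 had a higher ratio to Fcer1g in every bleomycin WT library than in every saline WT library, and the same 3 did so in bleomycin KO: Fcgr1, Fcgr2b and Fcgr3. The log2 ratio of Fcgr3 to Fcer1g was -1.14 to -0.67 in bleomycin KO and -1.28 to -0.76 in bleomycin WT, against -2.63 to -1.51 in saline WT. The ratio of Fcgr4 overlapped. A ratio to Fcer1g that was higher in every bleomycin library was found for 10.4% of all other genes tested in bleomycin WT over saline WT and for 13.2% in bleomycin KO over saline WT. Fcer1g is also made by neutrophils, whose summed markers, though not each single marker, were higher in every saline WT library as given above. The part of this in the ratios was not tested.

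Across 11 libraries (without saline WT 2), Fcgr1 varied together with Fcgr3 (Pearson r = 0.76) and Fcgr2b (r = 0.74) and opposite to Fcgr4 (r = -0.64), and Fcgr2b was also opposite to Fcgr4 (r = -0.60). Fcgr3 and Fcer1g had r = 0.52, and r = 0.87 within the 8 bleomycin libraries. Fcgr2b and Fcer1g had r = -0.29 over the 11 libraries but r = 0.73 within the 8 bleomycin libraries, and Fcgr1 and Fcer1g had 0.29 and 0.85. These values describe log2 levels in libraries that share treatment groups and uneven quality. Among the 8 bleomycin libraries, bleomycin WT 4 was the lowest in Fcgr1, Fcgr2b, Fcgr3 and Fcer1g and the highest in Fcgr4. How far the correlations rest on this library was not tested. By the same measure among 9338 genes, the genes most like Fcgr1 were Rtcb (r = 0.97), Aimp1 (0.96) and Exoc5 (0.96). Those most like Fcgr2b were Ifi30, a lysosomal thiol reductase of antigen processing (0.97), Ctss, the lysosomal protease cathepsin S (0.96), and Fabp5, a fatty acid binding protein (0.96). Within the 8 bleomycin libraries those 3 values were 0.75, 0.42 and 0.61, while the genes most like the other members stayed at 0.90 to 0.99. Those most like Fcgr3 were Gm14480 (0.92), Ss18l2 (0.91) and Snapc5 (0.91). Fcgr4 was most like 1700071M16Rik (0.95), the peroxiredoxin gene Prdx5 (0.94) and Gngt2 (0.92). Fcer1g was most like Alox5ap, which leukotriene synthesis needs (0.96), Myl6 (0.95) and Ly6c2, a marker of classical monocytes (0.95).

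The genes that carry the signal inward were measured with the receptors, in lists chosen with earlier results of these data known. Of 17 genes of activating signalling (kinases, adaptors and lipid enzymes downstream of the ITAM), edgeR called 0 in each comparison with 12 libraries. Their median log2 fold change was 0.20 for bleomycin WT over saline WT, -0.07 for bleomycin KO over bleomycin WT and 0.10 for bleomycin KO over saline WT, beside 0.08, -0.01 and 0.04 for all genes. Syk, the kinase recruited by the ITAM, had log2 fold changes over saline WT of 0.10 in bleomycin KO (SE 0.73) and -0.09 in bleomycin WT (SE 0.73). Lat2, a membrane adaptor phosphorylated downstream of Syk, had 213, 261, 263 and 213 CPM in bleomycin KO, against 194, 221, 268 and 602 CPM in bleomycin WT and 85.1, 21.6, 105 and 102 CPM in saline WT. All bleomycin libraries lay above all saline libraries for Lat2, with log2 fold changes of 1.53 in bleomycin KO (SE 0.51, adjusted p = 0.365 by edgeR) and 1.96 in bleomycin WT (SE 0.52, adjusted p = 0.201 by edgeR). With 10 libraries Lat2 rose in both, by 1.27 (SE 0.19, adjusted p = 0.0220 by edgeR) in bleomycin KO and by 1.20 (SE 0.20, adjusted p = 0.0404 by edgeR) in bleomycin WT, and it was the 1 gene called of the 17. By the smallest p, the other genes of this list to name were Fgr, a Src family kinase, for bleomycin KO over saline WT (log2 fold change -0.81, SE 0.48) and Pik3cg, a catalytic subunit of PI3 kinase, for bleomycin WT over saline WT (1.18, SE 0.74) and for bleomycin KO over bleomycin WT (-0.97, SE 0.74), where its 655 CPM in bleomycin WT 4 stood far above the other libraries.

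Genes of inhibitory signalling did not pass the test either. The list holds phosphatases and adaptors that act downstream of inhibitory receptors such as Fcgr2b, and 4 other inhibitory receptors (Pirb, Sirpa, Cd300a and Clec4a2). Of 12 tested, 0 were called in each comparison with 12 or with 10 libraries, and their median log2 fold changes were 0.18 for bleomycin WT over saline WT, -0.23 for bleomycin KO over bleomycin WT and 0.13 for bleomycin KO over saline WT. Inpp5d, the phosphatase that Fcgr2b recruits, had 426, 284, 259 and 286 CPM in bleomycin KO, against 231, 602, 302 and 275 CPM in bleomycin WT and 75.6, 54.0, 353 and 176 CPM in saline WT. Saline WT 3 lay within the range of the bleomycin libraries, and the log2 fold changes of Inpp5d were 0.90 in bleomycin KO (SE 0.55, adjusted p = 0.681 by edgeR) and 1.06 in bleomycin WT (SE 0.55, adjusted p = 0.380 by edgeR). Dok2, an adaptor that restrains tyrosine kinase signals, was at 154 to 199 CPM in bleomycin KO and 149 to 341 CPM in bleomycin WT, against 0 to 98.3 CPM in saline WT, with log2 fold changes over saline WT of 1.47 in bleomycin KO (SE 0.62, adjusted p = 0.505 by edgeR) and 1.98 in bleomycin WT (SE 0.63, adjusted p = 0.227 by edgeR). Pag1, the membrane anchor of the Src-inhibiting kinase Csk, separated the groups in the other direction, at 20.0 to 54.4 CPM in bleomycin KO and 30.7 to 70.02 CPM in bleomycin WT, against 78.9 to 357 CPM in saline WT. Its log2 fold changes were -2.10 in bleomycin KO (SE 0.60, adjusted p = 0.274 by edgeR) and -1.78 in bleomycin WT (SE 0.59, adjusted p = 0.234 by edgeR). The 357 CPM is saline WT 2, from 33 counts. Without that library the values were -1.42 in bleomycin KO (SE 0.49, adjusted p = 0.369 by edgeR) and -1.11 in bleomycin WT (SE 0.48, adjusted p = 0.328 by edgeR).

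Other receptors that use Fcer1g or the related adaptor Tyrobp (DAP12) differed in direction among themselves. Of 10 tested, 0 were called with 12 libraries, and the median log2 fold changes were -0.64 for bleomycin WT over saline WT, 0.11 for bleomycin KO over bleomycin WT and -0.55 for bleomycin KO over saline WT. Clec4n, which encodes the fungal receptor Dectin-2 and signals through Fcer1g, had 956 to 1252 CPM in bleomycin KO and 737 to 1038 CPM in bleomycin WT, against 241 to 404 CPM in saline WT. No bleomycin library of Clec4n overlapped a saline one, and the log2 fold changes were 1.79 in bleomycin KO (SE 0.36, adjusted p = 0.171 by edgeR) and 1.54 in bleomycin WT (SE 0.36, adjusted p = 0.174 by edgeR). With 10 libraries Clec4n rose in both, by 1.71 (SE 0.22, adjusted p = 0.0132 by edgeR) in bleomycin KO and by 1.38 (SE 0.23, adjusted p = 0.0371 by edgeR) in bleomycin WT. Trem2, a lipid-sensing receptor that signals through Tyrobp, had 436 to 494 CPM in bleomycin KO and 338 to 671 CPM in bleomycin WT, against 95.5 to 368 CPM in saline WT. Saline WT 2, at 368 CPM from 34 counts, lay above bleomycin WT 4 at 338 CPM. With 10 libraries, which leave out these 2, Trem2 also rose, by 1.87 (SE 0.28, adjusted p = 0.0220 by edgeR) in bleomycin KO and by 2.02 (SE 0.29, adjusted p = 0.0217 by edgeR) in bleomycin WT. Cd300lb, which uses Tyrobp as well, fell in bleomycin KO with 10 libraries (-1.42, SE 0.27, adjusted p = 0.0491 by edgeR). Trem1, which amplifies inflammatory signals through Tyrobp, was at 173 to 336 CPM in bleomycin KO and 158 to 229 CPM in bleomycin WT, against 119 to 1822 CPM in saline WT, where it was high in saline WT 3 and 4, the libraries with the highest neutrophil markers. Clec4e (Mincle), another partner of Fcer1g, had log2 fold changes over saline WT of -0.29 in bleomycin KO (SE 0.70) and 0.30 in bleomycin WT (SE 0.70).

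The machinery of the phagocytic cup and the NADPH oxidase, to which the receptors lead, was not called either. Of 15 genes, edgeR called 0 in each comparison with 12 or with 10 libraries, and their median log2 fold changes were 0.46 for bleomycin WT over saline WT, -0.22 for bleomycin KO over bleomycin WT and 0.13 for bleomycin KO over saline WT. Myo1e, a myosin of the phagocytic cup, was at 126 to 346 CPM in bleomycin KO and 4.98 to 540 CPM in bleomycin WT, against 0 to 58.6 CPM in saline WT, with log2 fold changes of 2.29 in bleomycin KO (SE 0.92, adjusted p = 0.478 by edgeR) and 2.51 in bleomycin WT (SE 0.93, adjusted p = 0.264 by edgeR). Bleomycin WT 4 was the library at 4.98 CPM. Ncf1, the organiser subunit of the oxidase, was at 404 to 490 CPM in bleomycin KO and 410 to 820 CPM in bleomycin WT, against 43.2 to 413 CPM in saline WT. Was, an actin regulator, had log2 fold changes over saline WT of -1.64 in bleomycin KO (SE 0.73, adjusted p = 0.519 by edgeR) and -1.27 in bleomycin WT (SE 0.72, adjusted p = 0.421 by edgeR). These values rest on saline WT 2, where 18 counts of Was gave 195 CPM, and without it they were -0.49 in bleomycin KO (SE 0.52, adjusted p = 0.820 by edgeR) and -0.12 in bleomycin WT (SE 0.53, adjusted p = 0.940 by edgeR).

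Other antibody receptors and the antibody genes themselves did not pass the test. Of 8 other antibody receptors tested, 0 were called with 12 or with 10 libraries, and their median log2 fold changes were -0.52 for bleomycin WT over saline WT, -0.25 for bleomycin KO over bleomycin WT and -0.75 for bleomycin KO over saline WT. Fcgrt, which encodes the neonatal receptor that recycles IgG, was at 209 to 452 CPM in bleomycin KO and 182 to 358 CPM in bleomycin WT, against 346 to 394 CPM in saline WT. Fcrla, an Fc receptor-like gene known from B cells, was at 6.53 to 20.3 CPM in bleomycin KO and 0.889 to 11.6 CPM in bleomycin WT, against 13.1 to 43.2 CPM in saline WT. Fcer2a, the low-affinity IgE receptor, was at 3.16 to 11.96 CPM in bleomycin KO against 8.12 to 90.8 CPM in bleomycin WT. Of 8 IgG and light chain genes tested (9 with 10 libraries), 0 were called, with median log2 fold changes of -0.33 for bleomycin WT over saline WT, 0.88 for bleomycin KO over bleomycin WT and 0.33 for bleomycin KO over saline WT. The most abundant was Igkc, at 278 to 1025 CPM in bleomycin KO, 85.9 to 706 CPM in bleomycin WT and 193 to 1017 CPM in saline WT. Ighg2b, which encodes an IgG heavy chain, was at 2.24 to 63.7 CPM in bleomycin KO, 0 to 7.60 CPM in bleomycin WT and 0 to 4.41 CPM in saline WT. Such transcripts come from B lineage cells, whose 6 markers summed to 114 to 266 CPM in bleomycin KO, 83.5 to 678 CPM in bleomycin WT and 97.3 to 348 CPM in saline WT, and their part in these values was not tested.

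**Figure D4:**
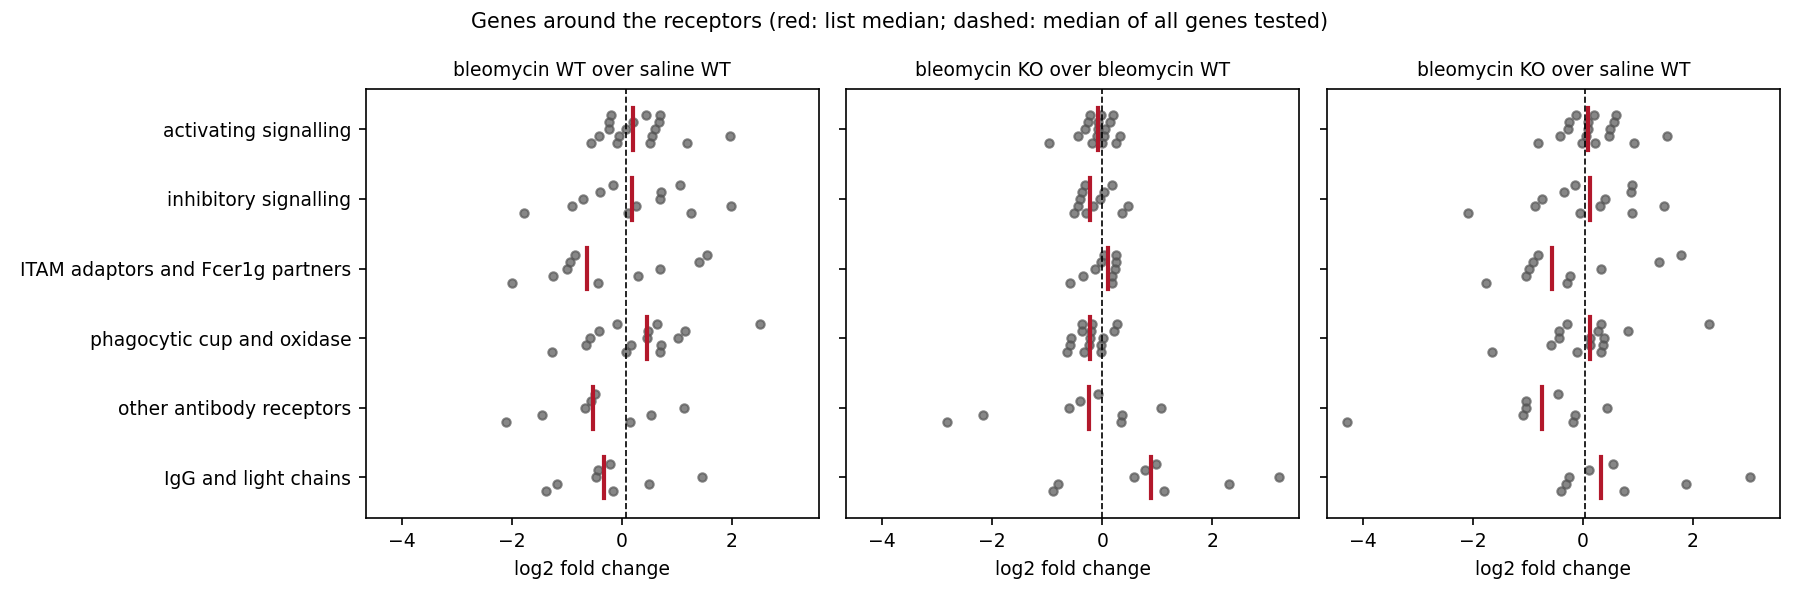
edgeR log2 fold changes (12 libraries) of the tested genes of 6 lists around the receptors in the 3 comparisons, with 1 point per gene, a red bar at the list median and a dashed line at the median of all genes. The list medians lie between -0.75 and 0.88, and no gene of these lists passed an adjusted p of 0.05.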

How the data were processed

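The authors deposited raw counts, whole numbers per Ensembl gene, for 52636 genes in 12 libraries, with a gene table of symbols, exons and exonic sizes. Per the labels' protocols, cDNA was amplified with a SMART-Seq v4 kit, which does not mark strand, and read as single-end 50-base reads. The tools GSNAP, limma and Partek and the builds GRCm38 and mm10 are named in the submitters' processing notes, with no versions, and the treatment of reads with several matches is in none of the sources used here. The design text of the series is about another experiment and was left aside.

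edgeR 4.0.16 (R 4.3.3) was run on all 12 libraries in 1 fit: filterByExpr (16679 genes), TMM scaling, glmQLFit with robust spread, glmQLFTest, Benjamini-Hochberg over all genes tested, threshold 0.05. SE is the log2 fold change over the square root of F, and the 95% intervals use the degrees of freedom behind each p. Members were also compared by an exact permutation test of log2 CPM (70 regroupings; 15 tests, unadjusted). Alternatives used DESeq2 1.42.0 and limma 3.58.1. The edgeR fit was also run on simulated counts of 12 libraries with genes changed 4-fold or 16-fold. It called 14% of the 4-fold changes for bleomycin WT over saline WT, 22% for bleomycin KO over bleomycin WT and 7% for bleomycin KO over saline WT. Of the 16-fold changes it called 89% to 92%. The changed genes were drawn from the more abundant ones, and changes of other sizes were not simulated. A gene not called with 12 libraries may thus still differ by 4-fold, and a part of the 16-fold changes was missed as well. Over 66 pairs of libraries the chi-square per degree of freedom was 21.1 or more, so none was counted as a repeat. Intervals and floors cover counting error only: 3 counts are 0.185 to 0.730 CPM in 11 libraries and 32.4 CPM in saline WT 2.

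The 5 members and the 15 gene lists (137 of 139 symbols matched, 131 genes tested) were chosen with earlier results of these data known. From 6 lists the text gives counts and the genes with the smallest p in a comparison, and of the other 9, marker lists, those that touch a result. Lat2, Clec4n, Trem2, Cd300lb, Treml4 and S100a9 with 10 libraries are every called gene of the lists they are named from, or were chosen after their values were seen, as were Syk, Inpp5d, Clec4e, Ncf1 and Fcer1a. A macrophage marker and a promoter motif are not reported here.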

Additional observations from a re-analysis of the deposited data

How the results depend on the processing

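Of 315 alternative values of the members' log2 fold changes, 296 kept their direction and side of the threshold, 10 newly passed it and 9 changed sign. The cause of these changes was not tested. Those that changed sign, all below 0.2 in size, were, for bleomycin KO over bleomycin WT, Fcgr1 (-0.0427) and Fcer1g (-0.0859) with limma-voom quality weights, Fcgr4 with 10 libraries (0.12), Fcgr1 (-0.0014) and Fcgr4 (0.10) without bleomycin WT 4, and Fcgr1 (-0.0105) and Fcgr4 (0.0910) without saline WT 1, saline WT 2 and bleomycin WT 4; for bleomycin WT over saline WT, Fcgr4 without saline WT 3 (0.18); and for bleomycin KO over saline WT, Fcer1g without saline WT 3 (0.0480). The 10 that passed are the Fcgr1 and Fcgr2b values given above, so that limma-voom called 2 members for bleomycin WT and 1 for bleomycin KO over saline WT, 10 libraries 1 and 2, and 9 libraries (also without saline WT 1) 2 and 2. Leaving out any 1 library called 0 members, and the values that changed sign ranged over these fits from -1.12 to 0.18 (Fcgr4, bleomycin WT over saline WT), -0.0014 to 0.64 (Fcgr1) and -1.04 to 0.10 (Fcgr4) between the genotypes, and -0.23 to 0.0480 (Fcer1g, bleomycin KO over saline WT).

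Genes called over all, 4 for bleomycin WT and 3 for bleomycin KO over saline WT, numbered 499 and 370 with DESeq2, 295 and 226 with limma-voom, 1 and 1 with RLE scaling, 780 and 694 without a filter, 0 and 1 with only the 2 groups compared, 81 and 121 with 10 libraries, 51 and 31 without saline WT 1 and 2, 522 and 465 with 9 libraries, and 1 to 11 and 0 to 18 when each library was left out in turn. Without a filter, 243 genes were called for bleomycin KO over bleomycin WT in place of 0. With the replicate number as a block they were 2, 1 and 0. Same-numbered libraries did not deviate together (correlations of -0.19 to 0.06 over 12 pairs), and 0 libraries matched their own number best. The numbers thus gave no sign of pairing the samples, which so few libraries of uneven quality cannot exclude. The permutation p with plain library totals was 0.0571 for Fcgr2b (bleomycin WT over saline WT) and 0.0286 for Fcer1g in both comparisons with saline WT. The activating over inhibitory difference between bleomycin KO and bleomycin WT (0.05) became -0.0111 as a mean of log2 levels and -0.32 without Fcgr3, and ranged from -0.0734 to 0.22 with a library left out. Depth limits saline WT 2 most, where Fcgr1 and Fcgr2b rest on 1 and 3 counts.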
